A study of Mus musculus with 6 samples.

Results

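The genes described here are the receptors of smell, pheromone and taste in sorted mature medullary thymic epithelial cells. They were chosen by symbol, as Olfr, Vmn1r, Vmn2r, Taar, Tas1r or Tas2r followed by a digit, among 15643 genes of a UMI count table. A UMI is a molecular identifier that marks 1 captured RNA. The rule found 9 genes, 6 olfactory receptor genes (Olfr1136, Olfr1358, Olfr1372-ps1, Olfr175, Olfr287 and Olfr920) and 3 taste receptor genes (Tas1r1, Tas1r3 and Tas2r105). No vomeronasal (Vmn1r, Vmn2r) or trace amine-associated (Taar) receptor was among them. The mouse annotation GENCODE M21 lists 1797 genes under these symbols. The table thus holds 6 of 1407 Olfr genes (0.426%), 2 of 3 Tas1r genes and 1 of 40 Tas2r genes (2.50%).

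All mice were of the NOD strain, which develops autoimmune diabetes spontaneously, and were 4.5 weeks old. Their medullary cells (mTEChi) were sorted after enzymatic dissociation of the thymus, and RNA was sequenced by MARS-seq, a method that tags transcripts at the 3' end. The study holds 3 libraries of genotype Aire+/+ (745, 750 and 753) and 3 of genotype Aire-/- (746, 748 and 749). The labels do not give the design of the Aire allele, the number of animals per library or whether libraries shared a litter, so p-values reflect only how far these libraries spread, which may be technical.

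Medullary thymic epithelial cells transcribe many genes that are otherwise restricted to single organs, and show the encoded proteins to developing T cells. Aire, a transcriptional regulator, is needed for a large part of that repertoire. Olfactory receptors are G protein-coupled receptors, each normally transcribed in a small fraction of olfactory sensory neurons, where they signal through Gnal, Adcy3 and the Cnga2 channel. Taste receptors signal through Gnat3, Plcb2 and Trpm5, a cascade that taste cells share with tuft cells, a chemosensory epithelial type that also occurs in the thymic medulla.

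Library totals ran from 1014581 (746) to 2887321 (753) UMIs, and every Aire+/+ library was deeper than every Aire-/- library. A count of 0 therefore allows up to 3 UMIs, or 1.04 to 1.10 UMIs per 1000000 in Aire+/+ and 1.53 to 2.96 UMIs per 1000000 in Aire-/-. These limits and the intervals below cover counting error only. UMIs of Aire itself numbered 6290 to 7290 in the Aire+/+ and 4772 to 8372 in the Aire-/- libraries. As the design of the allele is not given, these UMIs check nothing about the genotype, and directions rest on the labels. Gapdh was at 90 UMIs in 753 and 28 in 746, against 2245 to 4166 in the other 4 libraries. Of 14 markers of mature medullary epithelium, 13 were in the table, and their summed level was 45600 to 54000 CPM in Aire+/+ and 79900 to 92400 CPM in Aire-/-. CPM are counts per 1000000, here with library sizes scaled by TMM, which balances libraries on most genes. The sum follows mainly Cd74, H2-Ab1, H2-Aa and H2-Eb1, at means of 6460 to 14500 CPM in Aire+/+, against at most 2250 CPM for the others. Epcam was at 276 CPM in Aire+/+ and 278 CPM in Aire-/-, and Krt5 at 1580 and 1340 CPM. In the fit below, 7 of the 13 were called higher in Aire-/- and 6 were not called, with 8.59% of all genes tested called higher. Markers of other cells were present: thymocyte and T cell markers at 160 to 272 against 156 to 289 CPM, B cell and dendritic cell markers at 1230 to 1330 against 1450 to 2380 CPM, cortical epithelium markers at 187 to 354 against 528 to 661 CPM, and fibroblast and endothelial markers at 87.2 to 128 against 180 to 650 CPM. Their part in the results was not tested. Of 6 fibroblast and endothelial markers tested in that fit, 2 were called higher (Col3a1 and Dcn) and 4 were not called.

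Upstream sequences are shown for 3 olfactory members, the one that was called higher in Aire-/- (Olfr1136) and a pair with 0 UMIs in every Aire-/- library that share a motif (Olfr1358 and Olfr287). Each is the 250 bases before the RefSeq transcript start in GRCm38.p6, 5' to 3' on the strand of the gene, with motif matches in capitals.
Olfr1136, chr2:87693948-87694197 (- strand): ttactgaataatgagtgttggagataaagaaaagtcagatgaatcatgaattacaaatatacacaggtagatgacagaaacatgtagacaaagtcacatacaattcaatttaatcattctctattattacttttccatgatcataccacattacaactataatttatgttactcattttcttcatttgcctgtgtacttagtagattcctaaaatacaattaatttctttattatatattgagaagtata
Olfr1358, chr10:78517178-78517427 (+ strand): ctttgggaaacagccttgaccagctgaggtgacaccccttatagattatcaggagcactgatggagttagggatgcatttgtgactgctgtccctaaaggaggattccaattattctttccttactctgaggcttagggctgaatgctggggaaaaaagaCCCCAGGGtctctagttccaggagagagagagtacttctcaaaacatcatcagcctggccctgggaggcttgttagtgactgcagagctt
Olfr287, chr15:98221057-98221306 (- strand): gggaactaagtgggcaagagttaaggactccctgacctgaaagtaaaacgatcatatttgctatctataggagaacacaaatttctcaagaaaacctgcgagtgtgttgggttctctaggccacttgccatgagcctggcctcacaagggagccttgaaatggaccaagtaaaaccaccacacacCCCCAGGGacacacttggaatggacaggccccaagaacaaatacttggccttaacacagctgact

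The motifs searched on both strands were CCCNNGGG, the core of sites bound by the Ebf factors of olfactory neurons, TAATTA, a homeodomain site of the kind bound by Lhx2 and Emx2, and TATAAA, the TATA box. They were chosen as sequences known from olfactory receptor promoters, and none overlaps another in these windows. RefSeq gave upstream windows for 8 of the 9 members. CCCNNGGG was found in Olfr1358 and Olfr287, TATAAA in Olfr175, and TAATTA in none. Over all 32851 upstream windows CCCNNGGG occurred in 11.8%, TAATTA in 4.84% and TATAAA in 12.4%, and over 948 Olfr windows in 2.74%, 18% and 39.2%. The capitals in the Olfr1358 and Olfr287 windows are the same 8 letters. The windows of Olfr1358, Olfr287 and Olfr920 held 48.8%, 48.0% and 46.8% G and C, values that 4.01%, 4.85% and 6.33% of the Olfr windows reach. Olfr175 lay at the Olfr median of 34.0%, and Olfr1136 at 26.4%, which 91.5% of them reach. The RefSeq start of Olfr920 lies inside its first GENCODE exon, so that window is not upstream of the GENCODE start.

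Each of the 9 members was the only gene of these families in the table within 1 Mb. Olfr1136 lies on chromosome 2 at positions 87692881 to 87693947 (GRCm38, minus strand) as a gene of 1 exon. Within 1 Mb on either side, 110 other genes of the families are annotated and 0 of them were in the table, nor was any other gene. The nearest genes in the table were Tnks1bp1, 2619.8 kb away (log2 fold change 0.77, edgeR adjusted p = 0.0158), and Ptprj, 2736 kb away. Olfr920 (chromosome 9, positions 38752299 to 38760117, plus strand) has 100 family genes within 1 Mb, and Olfr175 (chromosome 16, positions 58823662 to 58826782, minus strand, listed by GENCODE as Olfr175-ps1 but protein-coding) has 31. Olfr1358 has 13, Olfr287 has 9 and Olfr1372-ps1 has 2. Of all these, 0 were in the table.

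**Figure D1:**
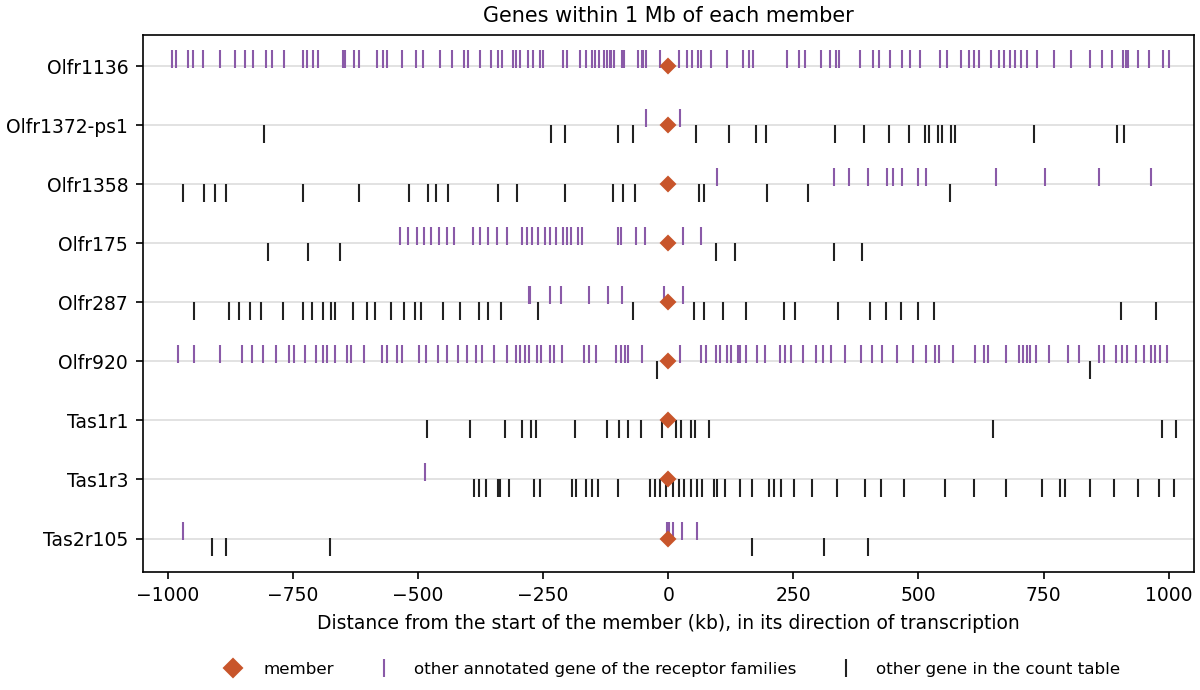
Position of genes around each of the 9 members, as distance in kb from the start of the member (diamond) along its direction of transcription; upper ticks are other annotated genes of the receptor families and lower ticks other genes in the count table. Olfr1136 stands among 110 receptor genes with no gene of the table within 1 Mb, whereas Tas1r3 has 49 genes of the table around it.

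Olfr1136 was the member with higher counts in the Aire-/- libraries. Libraries 745, 750 and 753 (Aire+/+) held 14, 5 and 2 of its UMIs, and libraries 746, 748 and 749 (Aire-/-) held 10, 15 and 34. Library 749 was the highest and 753 the lowest, and on the CPM scale the genotypes did not overlap, at 0.671 to 4.59 CPM against 8.07 to 20.8 CPM. The mean level rose from 2.30 ± 2.04 to 13.0 ± 6.80 CPM (SD, n = 3 each), or by 2.48 on the log2 scale (standard error 0.55, edgeR adjusted p = 0.00553). Pooled over the genotypes, its UMIs per 1000000 were 4.95 times as high in Aire-/-, and 10.06 times without library 745. Without library 745, which holds 14 of the 21 UMIs of the Aire+/+ group, the log2 fold change was 3.43 (edgeR adjusted p = 0.00286, and 0.000665 to 0.0309 over all alternatives). No other transcript matched the last 300 nt of Olfr1136 over at least 80 nt at 90% identity. In the authors' deposited table Olfr1136 was selected, with a log2 fold change of Aire+/+ over Aire-/- of -2.51 (adjusted p = 0.000661).

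Olfr1372-ps1, which GENCODE annotates as a transcribed pseudogene, was the tested member with lower counts in Aire-/-. In the order used above, its UMIs numbered 24, 21 and 29 against 0, 3 and 2, so the genotypes did not overlap and library 746 held none. Its level fell from 8.18 ± 1.42 to 0.946 ± 0.842 CPM (SD, n = 3 each), a change of -2.82 on the log2 scale (standard error 0.53, edgeR adjusted p = 0.00191). The gene lies on chromosome 11 at positions 52154722 to 52168159 (minus strand), wholly inside the long non-coding RNA gene Gm26551 on the same strand. The last 300 nt of its transcripts match Olfr1383 at 96.4% and Olfr1384 at 94.6% identity. Its counts are therefore uncertain between these genes. The neighbours on either side, Ppp2ca, a phosphatase subunit at 26.9 kb, and Skp1a, a ubiquitin ligase subunit at 63.8 kb, fell as well, by 0.49 (edgeR adjusted p = 0.0273) and 0.61 (0.0305) on the log2 scale. The authors' deposited table selected Olfr1372-ps1 too, with a log2 fold change of Aire+/+ over Aire-/- of 2.90 (adjusted p = 0.00614).

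These were the 2 of 9 members that passed the count filter of edgeR, 1 called lower and 1 called higher. Among the 11956 genes tested, 12.1% were called lower and 8.59% higher. Scaling by library totals alone changed that split from 58.5% to 78.3% lower among called genes and moved the median log2 fold change of all genes from -0.02 to -0.22, and both receptors kept their direction and call. A lower level of a receptor in these sorted populations can come from fewer cells that transcribe it or from less RNA per cell, which cannot be told apart. The authors' deposited table selected 2 of 9 members, against 9.42% of all genes.

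**Figure D2:**
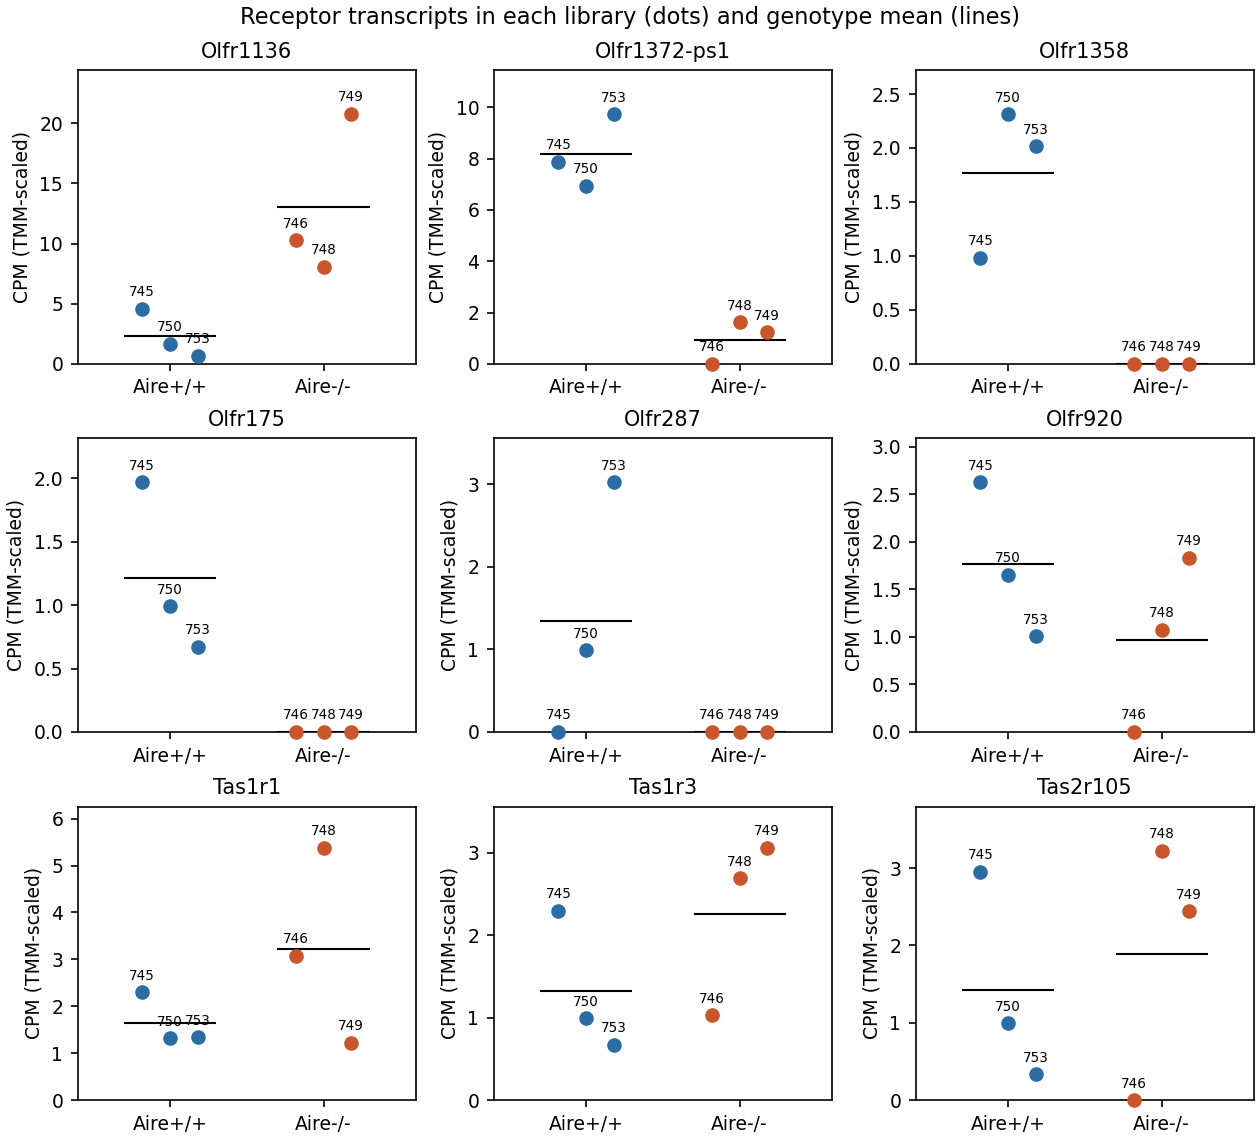
Level of each member in CPM (vertical axis from 0, TMM-scaled) in the 3 Aire+/+ libraries (left, blue) and the 3 Aire-/- libraries (right, orange), with library numbers beside the dots and lines at the means. Olfr1136 lies at 0.671 to 4.59 CPM on the left and 8.07 to 20.8 CPM on the right, and Olfr1358, Olfr175 and Olfr287 are at 0 in all Aire-/- libraries.

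Olfr1358, Olfr175 and Olfr287 had UMIs in Aire+/+ libraries and 0 UMIs in each Aire-/- library. None passed the count filter, so the main fit did not test them. Olfr1358 had 3, 7 and 6 UMIs in libraries 745, 750 and 753. At the Aire+/+ rate, the Aire-/- group of 4799615 UMIs would have held 9.07, 3.02-fold the floor of 3 UMIs over the group. The counting interval put the level at least 2.19-fold lower. With no count filter edgeR gave an adjusted p of 0.048 for Olfr1358, 0.105 for Olfr175 and 0.160 for Olfr287. The authors' deposited table gives adjusted p of 0.115, 0.271 and 0.281 in the same order, and selected none of them. Olfr1358 lies on chromosome 10 at positions 78517428 to 78520566 (plus strand), 474 kb from Aire, so it is close to the altered locus. Its nearest neighbours in the table, the pyridoxal kinase gene Pdxk and Ilvbl, had log2 fold changes of -0.08 (edgeR adjusted p = 0.845) and 0.14 (0.641). A long non-coding RNA gene, Gm47944, overlaps Olfr1358 on the opposite strand over 2792 bases, away from its 3' end.

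Olfr175 had 6, 3 and 2 UMIs in the Aire+/+ libraries, highest in 745. The Aire-/- group would have held 6.24 at that rate, 2.08-fold the floor, and the counting interval put the level at least 1.42-fold lower. Olfr287 had 0, 3 and 9 UMIs in 745, 750 and 753, so library 753 holds most of its signal and 745 holds none. At its Aire+/+ rate the Aire-/- group would have held 6.80 UMIs, 2.27-fold the floor. The counting interval put the level at least 1.58-fold lower. Ratios of Aire-/- to Aire+/+ with 3 UMIs in place of 0 were 0.331 for Olfr1358, 0.481 for Olfr175 and 0.441 for Olfr287. These take the Aire+/+ count as free of error. The upper limits of the exact counting intervals were higher, at 0.457, 0.703 and 0.635 in the same order. Without 748 or 749 the ratios with 3 UMIs were 0.559 and 0.533, 0.813 and 0.776, and 0.745 and 0.711. For Olfr175 the ratio was 0.716 without 745. For Olfr287 without 753, the Aire+/+ group keeps 3 UMIs, which is the floor, and no fold can be given. The last 300 nt of Olfr287 transcripts (chromosome 15, positions 98206971 to 98221056, minus strand) match Olfr288 and the overlapping gene Gm44579 at 100% and Olfr286 at 91.1%, so the counts cannot be assigned to 1 gene. Ccdc184, 36.8 kb from Olfr287, rose by 1.66 on the log2 scale (edgeR adjusted p = 3.06e-05).

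Olfr920 had 8, 5 and 3 UMIs against 0, 2 and 3, and the genotypes overlapped. Its rate in Aire-/- was 0.551 of that in Aire+/+, with an exact 95% counting interval of 0.158 to 1.57 (Clopper-Pearson), so a difference was not detectable at this depth, and without library 749 the ratio was 0.356. Its neighbour Vwa5a, 9.0 kb away, had a change of -0.36 on the log2 scale (edgeR adjusted p = 0.152).

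Genotypes did not overlap for 4 of 9 members, lower in Aire-/- for Olfr1358, Olfr1372-ps1 and Olfr175 and higher for Olfr1136. Among all genes in the table, 24.5% did not overlap with lower and 13.2% with higher values in Aire-/-. Members with 0 UMIs in all Aire-/- libraries numbered 3 of 9, against 5.48% of all genes in the table. These counts describe genes that had first to enter the table. Every gene in it reaches 6 UMIs in at least 1 library, and 6 members reach that number only in Aire+/+ libraries, 0 only in Aire-/- libraries and 3 in both genotypes. Olfr175, with 6 UMIs as its highest count, stands at that limit with 442 genes whose highest library has just as many. The Aire+/+ libraries were the deeper ones, and the part of depth in which genes entered the table was not tested.

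**Figure D3:**
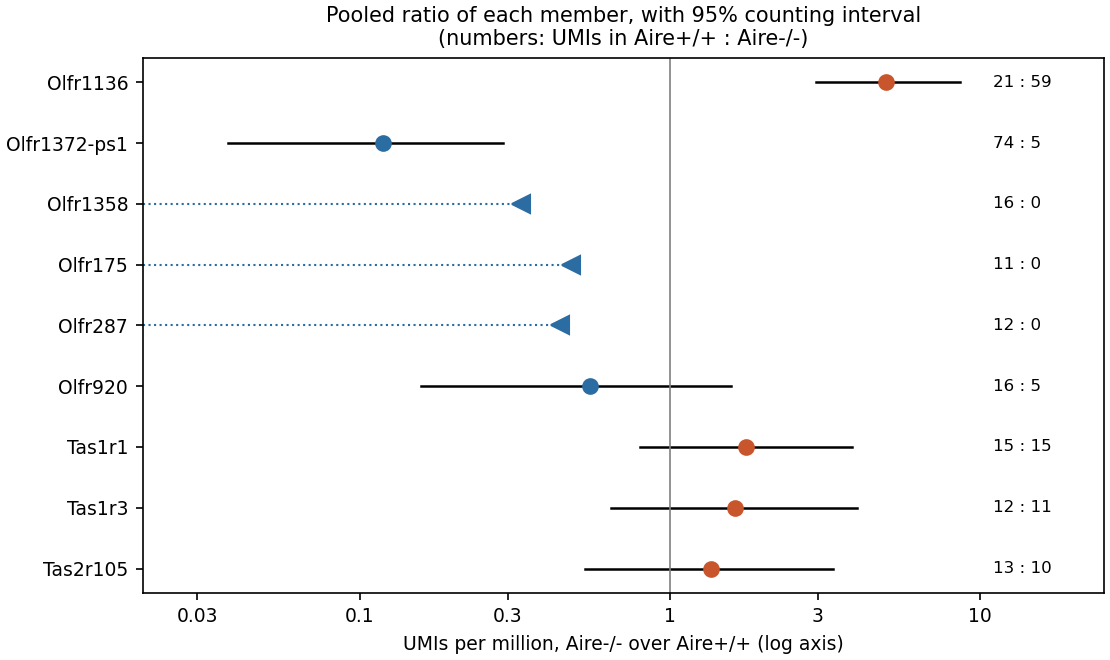
UMIs per 1000000 of the library totals in Aire-/- over Aire+/+ for each member (log axis), pooled over 3 libraries a genotype, with exact 95% counting intervals as lines and the UMIs of both groups at the right. Left-pointing triangles are ratios for members with 0 UMIs in Aire-/-, with 3 UMIs in place of 0 and the Aire+/+ count taken as free of error. They lie below the upper limits of the exact intervals. The interval of Olfr1136 is the one that lies wholly above 1.

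The 3 taste receptor genes had similar UMI numbers in both groups. Tas1r1 and Tas1r3 encode the subunits of the umami receptor, and Tas1r3 is also part of the sweet receptor. Tas1r1 (chromosome 4, positions 152027914 to 152038568, minus strand) had 7, 4 and 4 UMIs against 3, 10 and 2, highest in 748. Its rate in Aire-/- was 1.76 times that in Aire+/+, with a counting interval of 0.803 to 3.87. Tas1r3 (chromosome 4, positions 155859268 to 155863362, minus strand) had 7, 3 and 2 UMIs against 1, 5 and 5, a ratio of 1.62 (0.646 to 4.0). Its 3' end overlaps that of Dvl1 on the opposite strand by 36 bases, and the strand setting of the counting is not given in the sources used here. Dvl1 stood at 46.9 CPM in Aire+/+ and 57.9 CPM in Aire-/-.

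Tas2r105, a bitter receptor known for its response to cycloheximide (chromosome 6, positions 131686532 to 131687495, minus strand), had 9, 3 and 1 UMIs against 0, 6 and 4. The ratio was 1.36, with an interval of 0.532 to 3.35. With the looser filter of edgeR (min.count 3) the adjusted p was 0.292 for Tas1r1, 0.409 for Tas1r3 and 0.666 for Tas2r105, and none was called. Leaving out 748, the highest Aire-/- library for Tas1r1 and Tas2r105, brought their ratios to 0.994 and 0.917, the other side of 1, and for Tas2r105 leaving out 753 did so too (0.968), whereas without 745 its ratio was 2.98. Over single libraries left out, the ratio of Tas1r3 ran from 1.28 to 2.62.

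Summed over the 3 taste genes, the level was 7.54, 3.30 and 2.35 CPM in libraries 745, 750 and 753 and 4.11, 11.3 and 6.72 CPM in 746, 748 and 749. The sum of 7 tuft-like cell markers in the table was 73.1, 89.5 and 59.1 CPM in Aire+/+ and 138, 156 and 78.9 CPM in Aire-/-. Both were highest in 748 and lowest in 753, but 745 came next to the highest for the taste genes and next to the lowest for the markers. The part of tuft-like cells in the taste receptor counts was not tested. The 5 olfactory members other than Olfr1136 are a grouping made after the values were seen. Each of them reaches 6 UMIs, the lowest peak count in the table, only in Aire+/+ libraries. The choice of members thus favours the direction of their sum, which is given as a description. They summed to 13.5, 12.9 and 16.5 CPM in Aire+/+ and to 0, 2.69 and 3.06 CPM in Aire-/-. With Olfr1136 the olfactory sum was 16.6 ± 1.81 CPM in Aire+/+ and 15 ± 7.70 CPM in Aire-/- (SD, n = 3 each), and the genotypes overlapped. Thinned to 1014581 UMIs per library, 7.6, 7.5 and 6.45 members had a UMI in Aire+/+ and 3, 5.5 and 5.4 in Aire-/- (means of 20 draws), against 8, 9 and 9 and 3, 6 and 6 without thinning. The members entered the table at full depth, 6 of them through Aire+/+ libraries only. Thinning does not remove that choice, which favours detection in Aire+/+, so these numbers are a description.

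**Figure D4:**
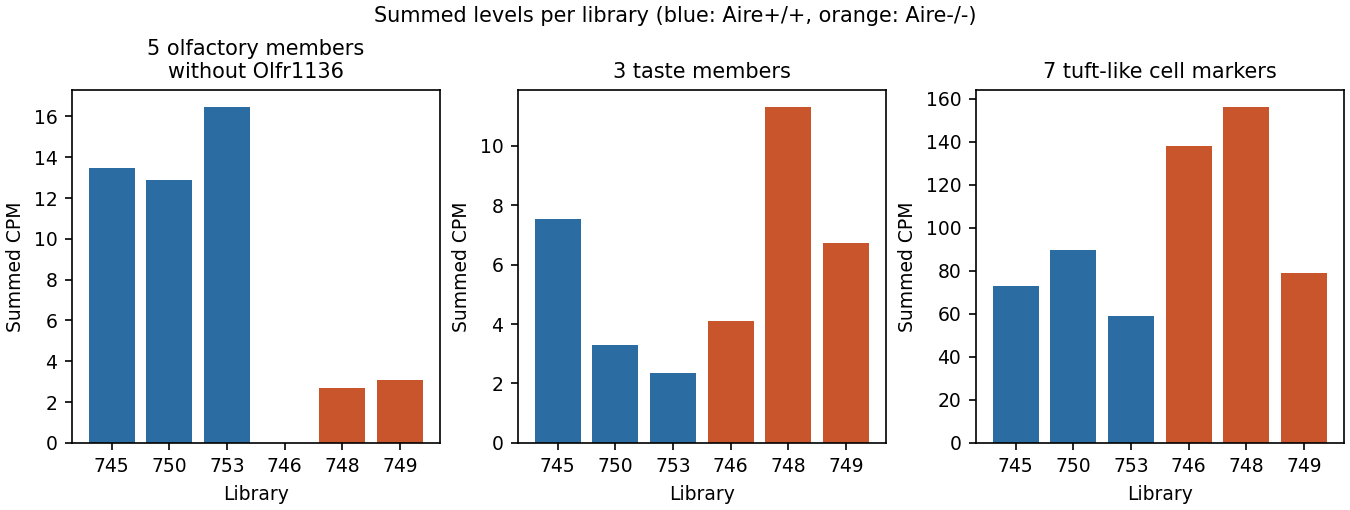
Summed level in CPM (bars from 0) per library for the 5 olfactory members other than Olfr1136, the 3 taste members and 7 tuft-like cell markers, with Aire+/+ in blue and Aire-/- in orange. The first sum is 12.9 to 16.5 CPM in Aire+/+ and 0 to 3.06 CPM in Aire-/-, a direction that the choice of members favours. The taste and tuft-like sums overlap between genotypes.

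The genes through which olfactory receptors signal went both ways. Of 20 genes of olfactory neuron transduction and maturation, 18 were in the table and 13 tested, of which 2 fell, 2 rose and 9 were not called, with a median log2 fold change of -0.04 against -0.02 over all genes tested, of which 12.1% were called lower and 8.59% higher. The 5 genes below the filter all had fewer UMIs per 1000000 in Aire-/-. Of these, Gnal, Cnga4, Ano2 and Stoml3 reach 6 UMIs, the lowest peak count in the table, only in Aire+/+ libraries. How genes entered the table thus favours that direction for them. Cnga2, a subunit of the odorant-gated channel, was at 33.2 ± 3.88 and 36.8 ± 4.42 CPM (log2 fold change 0.14, edgeR adjusted p = 0.656). Omp, the classical marker of mature olfactory neurons, was at 12.9 ± 2.68 and 12.2 ± 2.60 CPM (-0.04, 0.947), and Adcy3, the olfactory adenylyl cyclase, at 18.8 ± 4.93 and 20.6 ± 1.02 CPM (0.14, 0.749; SD, n = 3 each). All 3 had UMIs in every library of both genotypes. The tested marker Cngb1 had a lower mean in Aire-/-, 37.1 ± 2.33 CPM against 51.4 ± 4.83 CPM (SD, n = 3 each). Its log2 fold change of -0.47 missed the threshold (edgeR adjusted p = 0.059). Its pooled ratio of Aire+/+ to Aire-/- was 1.59 (counting interval 1.33 to 1.91). Other markers of the same neurons were below the filter and had values in 1 direction. Gnal, the G protein alpha subunit of the odorant receptors, had 3, 9 and 3 UMIs against 0, 1 and 1, a pooled ratio of Aire+/+ to Aire-/- of 4.25 (counting interval 0.989 to 38.3). Stoml3, a membrane protein of olfactory cilia, had 7, 7 and 15 against 0, 1 and 0, or 16.4 times more per UMI sequenced in Aire+/+ (2.73 to 672). Their genotypes did not overlap, although the interval of Gnal includes 1.

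Gap43, a growth cone protein of immature olfactory and other neurons, had 43, 61 and 57 UMIs in Aire+/+ and 0, 1 and 1 in Aire-/- (edgeR adjusted p = 2.17e-05), or 45.7 times more per UMI sequenced in Aire+/+ (counting interval 12.4 to 380). Gng8, a G protein gamma subunit of immature olfactory and vomeronasal neurons, had 22, 34 and 22 UMIs against 2, 1 and 3 and fell by 2.62 on the log2 scale (0.00235). Gng13, a gamma subunit shared by olfactory, taste and tuft cells, was at 47.2 ± 8.75 CPM in Aire+/+ and rose to 131 ± 48.2 CPM (1.46 on the log2 scale, edgeR adjusted p = 0.000838). Slc24a4, a sodium-calcium exchanger that ends the odorant response, rose by 0.49 (0.0301), a call lost in 8 of 12 alternatives, where the adjusted p reached 0.187, among them leaving out any 1 library other than 748. Cnga4, a second channel subunit, was below the filter at 8, 6 and 12 UMIs against 0, at least 3.72-fold lower by its counting interval. Ano2, the chloride channel of olfactory cilia, had 8, 7 and 5 UMIs against 1, 0 and 0, a pooled ratio of Aire+/+ to Aire-/- of 11.3 (1.81 to 470), and Nsg1 had 21, 15 and 10 against 3, 7 and 3, the ratio being 2.01 (1.07 to 4.05). All 7 olfactory neuron markers in the table summed to 156 to 186 CPM in Aire+/+ and 193 to 277 CPM in Aire-/-. Without Gng13, the 6 others summed to 112 to 129 CPM in Aire+/+ and 104 to 114 CPM in Aire-/-.

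Receptor chaperones and choice factors were mostly not called. The list has 18 genes, 14 of them in the table, and 8 were tested, of which 1 fell, 1 rose and 6 were not called (median log2 fold change 0.16, against -0.02 over all genes tested). A single call in either direction is near the shares over all genes tested, 12.1% lower and 8.59% higher. Rtp4, a receptor transporter protein that is also induced by interferon, fell from 66.4 ± 14.9 to 18.3 ± 2.51 CPM (-1.83, edgeR adjusted p = 5.24e-05). Atf5, a stress-responsive factor that olfactory neurons use to stabilize receptor choice, rose from 509 ± 72.9 to 815 ± 87.9 CPM (0.68, 0.00457). The factors whose motifs were searched were all below the filter. Ebf1 had 8, 2 and 2 UMIs against 1, 5 and 4. Ebf3 had 10, 5 and 6 against 0, 1 and 2, a pooled ratio of Aire+/+ to Aire-/- of 3.97 (1.185 to 20.8). Ebf4 had 18, 10 and 12 against 4, 7 and 6, the ratio being 1.33 (0.74 to 2.51). Lhx2 had 8, 8 and 11 against 2, 10 and 3, and Emx2 had 5, 3 and 6 against 0, 1 and 1. Ebf1, Ebf3 and Emx2 reach 6 UMIs only in Aire+/+ libraries.

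Of 21 vomeronasal transduction genes 11 were in the table and 4 tested, of which 1 fell (Gng8), 1 rose and 2 were not called (median 0.22, against -0.02 over all genes tested, with 12.1% of these lower and 8.59% higher). H2-M10.1, a non-classical MHC class I molecule of vomeronasal neurons, rose from 66.1 ± 2.10 to 140 ± 19.2 CPM, by 1.08 on the log2 scale (edgeR adjusted p = 0.000141). Its relatives below the filter had values in the other direction. They reach 6 UMIs only in Aire+/+ libraries, as does Tfap2e, so entry into the table favours that direction. H2-M10.4 had 10, 8 and 6 UMIs against 0, at least 3.41-fold lower by its counting interval. H2-M10.3 had 11, 9 and 11 against 1, 0 and 1, or 8.79 times more per UMI sequenced in Aire+/+ (2.24 to 75.8). Tfap2e, a transcription factor of basal vomeronasal neurons, had 6, 10 and 8 UMIs against 0, at least 3.41-fold lower by its counting interval.

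The list of taste and tuft cell transduction held calls in both directions. It has 29 genes, 24 of them in the table and 19 tested, of which 1 fell, 4 rose and 14 were not called, with a median log2 fold change of 0.56. Over all genes tested the median was -0.02, with 12.1% called lower and 8.59% higher. Gnb3, the G protein beta subunit of taste cells, rose from 24.4 ± 5.50 to 91.7 ± 40.9 CPM, by 1.90 on the log2 scale (edgeR adjusted p = 0.000645), beside Gng13. Trpm5, the channel that depolarizes taste and tuft cells, rose by 1.04 (0.0348), and Scnn1a, a sodium channel subunit, by 0.56 (0.0298). These last calls were lost in 6 and 7 of 12 alternatives, with adjusted p up to 0.282 and 0.205. Among these were scaling by library totals for both, leaving out any of 745, 750, 753 or 748 for Trpm5, and any of 745, 753, 746 or 748 for Scnn1a. Over the alternatives the log2 fold change of Trpm5 ran from 0.56 to 1.22. Gnat3, the taste G protein alpha subunit, had 18, 24 and 18 UMIs against 4, 49 and 18 and was not called (1.17, edgeR adjusted p = 0.0975). Pkd2l1, a channel of sour-sensing taste cells, fell by 1.68 (0.0103), and lost its call (0.0652) without the libraries low in Gapdh. Of the 5 genes below the filter, 3 had lower values in Aire-/- without overlap, as had 24.5% of all genes in the table. These 3 reach 6 UMIs only in Aire+/+ libraries, so entry into the table favours that direction. Ffar3, a short-chain fatty acid receptor, had 11, 15 and 13 UMIs against 0, at least 5.72-fold lower by its counting interval. Otop1, the proton channel of sour-sensing cells, had 8, 7 and 1 against 0, at least 2.19-fold lower by its interval. Dclk1, a kinase used as a tuft cell marker, had 19, 21 and 11 UMIs against 1, 4 and 1, or 4.82 times more per UMI sequenced in Aire+/+ (2.07 to 13.8). The others, Pou2f3, the tuft cell transcription factor, and Sucnr1, a succinate receptor, had 16 UMIs in Aire+/+ and 14 in Aire-/- each, and a pooled ratio of Aire-/- to Aire+/+ of 1.54 (0.697 to 3.37).

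**Figure D5:**
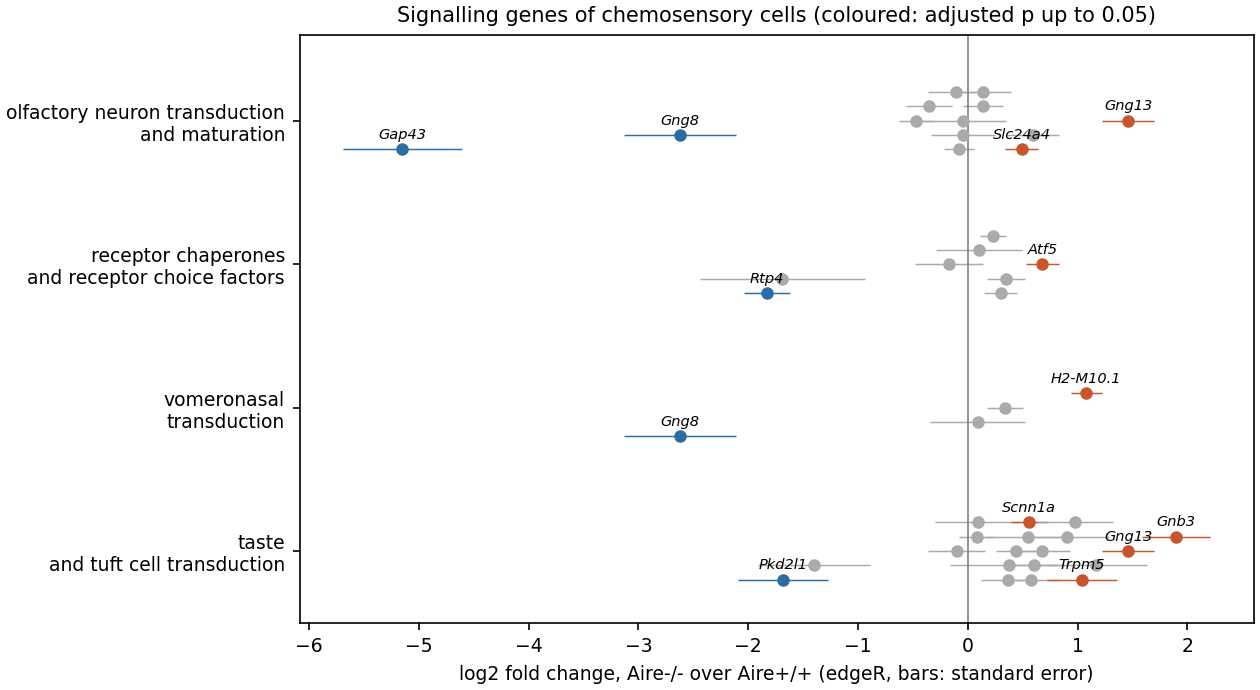
Log2 fold change of Aire-/- over Aire+/+ (edgeR, bars are standard errors) for the tested genes of the 4 signalling lists, 1 dot a gene, spread vertically within a list for legibility, coloured and named where the adjusted p was up to 0.05. Gap43 and Gng8 lie farthest to the left and Gnb3 farthest to the right.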

How the data were processed

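RNA of sorted mTEChi was counted in 6 MARS-seq libraries. STAR 2.4.2a, HTSeq, DESeq2, cutadapt, bcl2fastq and build mm10 are listed, without roles, per the submitters' processing notes. The handling of UMIs, strand and multiply matching reads is not given in the sources used here. The table holds raw UMI counts deposited by the authors, normalized counts (a signal) and regularized log2 values deposited by the authors, which were not used, and the authors' deposited log2 fold changes, p-values and selection, per the file headers. Every per-sample column was matched to a sample by its title.

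All genes were fitted with edgeR 4.0.16 (R 4.3.3), by glmQLFit and glmQLFTest with TMM scaling, filterByExpr (min.count 10), genotype as the term and Benjamini-Hochberg adjustment over 11956 genes (threshold 0.05). Where no other source is named, adjusted p-values are from edgeR. Pooled ratios use library totals and Clopper-Pearson limits. Positions and transcripts come from GENCODE M21, upstream sequences from RefSeq GRCm38.p6, and 3' ends were compared with blastn 2.17.0. The edgeR and DESeq2 steps were tested on simulated data.

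All 9 members are named. Of each signalling list, the rule named up to 5 called genes by p, and others were named after their values were seen. Members and lists were chosen with earlier results of these data known. Alternatives were other scaling, DESeq2 1.42.0, other filters and libraries left out.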

Additional observations from a re-analysis of the deposited data

How the results depend on the processing

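The calls of Olfr1136 and Olfr1372-ps1 kept their direction and their side of the threshold in all 24 alternatives. Their log2 fold changes ran from 1.93 to 3.43 and from -3.33 to -2.34. Without the count filter 2 receptor genes were called lower instead of 1, Olfr1358 being the second. Pooled ratios of members were recomputed in 62 alternatives, of which 8 moved outside the counting interval, all by leaving out 1 library.

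Over all genes, 1027 were called higher, but 567 with library totals, 652 without 753 and 746 together, and 618 to 1156 with 1 library left out (632 without 745, 618 without 753), while 1450 were called lower and 1098 to 1899 with 1 library left out. Over the 4 signalling lists, 4 genes were called lower, but 9 by DESeq2, 13 with min.count 3, 12 without a filter and 4 to 8 with 1 library left out (8 without 746, 7 without 749). There 7 were called higher, but 4 with library totals, 4 without 753 and 746 together, and 4 to 12 with 1 library left out (4 without 745 or 753, 12 without 749). The cause was not tested.

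All 9 members summed to 22.5 UMIs per 1000000 in Aire+/+ and 20.7 in Aire-/-. Some of the member groupings were added after seeing the data. In Aire+/+ the sum was 13.8 without Olfr1372-ps1 and 4.78 for taste genes alone. In Aire-/- it was 8.66 without Olfr1136, 13.8 for olfactory and 6.89 for taste genes alone. With 1 library left out it ran from 19.6 to 24.3 and from 17.3 to 24.2. The mean number of members detected at equal depth was 7.18 in Aire+/+ and 4.63 in Aire-/-, a direction that the choice of members at full depth favours. In Aire+/+ it was 4.78 with a limit of 2 UMIs, 8.67 without thinning, and 6.97 to 7.55 with 1 library left out. In Aire-/- it was 4.20 to 5.45 with 1 library left out.

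No paired analysis was possible because the labels name no litter, batch or pair that links libraries of the genotypes. Depth limits members with few UMIs: a level of 0.625 UMIs per 1000000 or less in the pooled Aire-/- libraries cannot be told from 0.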
